A study of Homo sapiens with 14 samples.

Results

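The integrated stress response is the program by which cells cut back protein synthesis and raise amino acid supply when the translation initiation factor eIF2 is phosphorylated. The levels of 34 of its genes are described here, out of 62699 genes in the count table. They were taken by symbol from a list in 5 roles: 5 ATF and C/EBP factors (ATF4, DDIT3, ATF3, CEBPB and NUPR1), 7 feedback genes and effectors (TRIB3, CHAC1, DDIT4, SESN2, PPP1R15A, VLDLR and STC2), 7 genes of amino acid and one-carbon synthesis (ASNS, PSAT1, PHGDH, PSPH, SHMT2, MTHFD2 and ALDH1L2), 3 amino acid carriers (SLC7A11, SLC7A5 and SLC3A2) and 12 tRNA synthetases. All 34 had a row and passed the filter on low counts in every fit of the siRNA libraries, VLDLR and PHGDH through lines other than AGS.

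The study sequenced poly(A) RNA of human cancer cell lines in which ADAR was knocked down with siRNA. ADAR encodes ADAR1, which converts adenosines of double-stranded RNA to inosines. The established lines were MDA-MB-231 and BT-549, both from triple-negative breast cancer, NCI-H1395 from lung adenocarcinoma and AGS from gastric cancer. Each line gave 1 library with control siRNA (labelled SiNC) and 2 libraries with ADAR siRNA, numbered 1 and 2, and no other agent or allele is labelled in these groups. MDA-MB-231 also gave 1 library with NOP14 overexpression and 1 control library labelled PCDH. The dose, the time of harvest, and whether the numbers 1 and 2 mark different siRNAs or the same one are unstated in the labels. Separate cultures are not stated either. P-values within a line and for the difference between lines therefore measure only the spread between each line's ADAR siRNA libraries, which may be technical. In the fit over all lines, with each ADAR siRNA pair summed, the spread is that of the response between lines. In the comparison of libraries 2 and 1, the spread is that of their difference between lines.

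In this pathway 4 kinases sense different stresses and phosphorylate eIF2: HRI (EIF2AK1), PKR (EIF2AK2), which binds double-stranded RNA, PERK (EIF2AK3) in the endoplasmic reticulum and GCN2 (EIF2AK4), which responds to uncharged tRNA. Bulk translation then slows, while the ATF4 messenger is translated more, so that ATF4 protein can rise without more ATF4 mRNA. ATF4 pairs with C/EBP proteins on composite DNA elements and turns on amino acid synthesis, carriers and tRNA synthetases, together with DDIT3 and feedback genes that end the response. Loss of ADAR1 is known in other systems to free double-stranded RNA for PKR.

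The 14 libraries held 13338300 to 27828400 counts. With ADAR siRNA the ADAR level was 10.5% and 11.9% of the control in libraries 1 and 2 of NCI-H1395, 12.9% and 11.5% in BT-549, 17.6% and 23.9% in AGS, and 32.3% and 33.8% in MDA-MB-231. ADAR was called lower within each line by the edgeR quasi-likelihood test with Benjamini-Hochberg adjustment (largest adjusted p 0.00663, in MDA-MB-231). In the edgeR fit over the 4 lines, ADAR itself was not called (log2 fold change -2.50 ± 0.29, adjusted p 0.0996). The immune genes PTPRC and CD3E were at 0 in all libraries of NCI-H1395 and AGS. In the breast lines CD3E was at 0, and PTPRC reached 1.12 CPM in MDA-MB-231 and 0.0932 CPM in BT-549. The lung genes NKX2-1, NAPSA and SFTPB summed to at most 1.48 CPM in NCI-H1395. The stomach and intestine genes CLDN18, GKN1, TFF1 and CDX1 summed to at most 2.65 CPM in AGS. Lung markers in NCI-H1395 and stomach and intestine markers in AGS were thus nearly absent. In the breast lines the receptor genes ESR1 and PGR reached at most 0.728 CPM. ERBB2 stood at 60.3 to 92.3 CPM in MDA-MB-231 and at 92.0 to 124 CPM in BT-549. Among epithelial genes in NCI-H1395, KRT8 reached 269 CPM and KRT18 615 CPM, while EPCAM, KRT19 and CDH1 reached at most 0.808 CPM. Of the mesenchymal genes there, VIM stood at 1616 to 2826 CPM, ZEB1 at 70.5 to 98.1, CDH2 at 65.2 to 92.5 and FN1 at 11.8 to 13.1 CPM. Mitochondrially encoded genes took 2.96% to 5.52% of the counts of the siRNA libraries. Exons of 15 of the 34 genes overlap a gene on the other strand, and reads of the pairs cannot be told apart where counting ignored strand. Near-identical copies reached at most 9.66 CPM for PSPHP1, 5.25 CPM for ASNSP1 and 4.80 CPM for ATF4P3. The ASNSP1 maximum is above the ASNS control level in BT-549 (0.665 CPM), MDA-MB-231 (1.52 CPM) and NCI-H1395 (4.05 CPM). Whether reads of ASNS and ASNSP1 were mixed was not tested. In bulk RNA, fewer cells of a kind and less RNA per cell cannot be told apart.

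The motif bound by ATF4 with C/EBP proteins was looked for in the promoters, because most of the genes are known as ATF4 targets. RefSeq promoter sequences on GRCh38.p14 (hg38), from 250 bases before to 50 bases after a transcription start, were held for 27 of the 34 genes. TGATGNAA, read on both strands, was present for 11 of these 27 genes (40.7%), against 4.46% of all 27305 genes with such sequences. By role it was found for 7 of 10 synthetases with an entry and for 1 gene in each other role: ATF3, CHAC1, ASNS and SLC3A2. TGATGCAA, 1 of the letter strings that TGATGNAA covers, was present for 7 of the 27 (25.9%) against 1.08% of all genes. With only the 200 bases before the start, TGATGNAA was left in 5 of the 27 (18.5%) against 3.2%. Genes have unequal numbers of starts, and counted per start it was in 11 of 41 (26.8%) against 3.62%. The ER stress response element, a longer motif which serves the ATF6 branch of the unfolded protein response, was in 0 of the 27 and in 0.0916% of all genes. At that share a match among 27 genes would be rare, so the 0 shows nothing about these genes. A match is a string of letters and shows neither binding nor use of the site.

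The 7 windows of 30 bases shown here are those of the 3 genes with a match whose ratios were highest in NCI-H1395 and of 4 synthetases. Each is written 5′ to 3′ on the strand that reads TGATGNAA, with the motif in capitals:
ATF3: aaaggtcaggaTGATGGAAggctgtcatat
CHAC1: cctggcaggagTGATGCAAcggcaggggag
ASNS: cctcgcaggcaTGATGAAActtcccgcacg
AARS1: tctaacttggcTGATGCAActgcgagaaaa
CARS1: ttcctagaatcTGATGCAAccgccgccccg
MARS1: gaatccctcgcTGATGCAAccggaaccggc
NARS1: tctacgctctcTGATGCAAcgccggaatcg
The ATF3 window is at chr1:212565205-212565234 and its motif ends 184 bases before the start. The CHAC1 window is at chr15:40953251-40953280, with the motif on the strand opposite the gene, 209 to 202 bases before the start. The motifs shown for AARS1, CARS1 and MARS1 are also on the opposite strand, and those of ATF3, ASNS and NARS1 on the gene strand. ASNS has its window at chr7:97872458-97872487 and its motif 68 to 61 bases before the start. The synthetase windows are at chr16:70289675-70289704 for AARS1, chr11:3057407-3057436 for CARS1, chr12:57488053-57488082 for MARS1 and chr18:57621804-57621833 for NARS1. Of these, the AARS1 motif ends 180 bases before the start, the CARS1 and MARS1 motifs span the start, and the NARS1 motif begins 15 bases into the transcript. Synthetases with the same 8 letters therefore carry them at different distances. Whether the distance bears on their levels was not tested.

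Without ADAR siRNA, most of the stress genes were highest in AGS. AGS had the highest control level of the 4 lines for 25 of the 34 genes, against 25.9% of 23959 genes for which AGS was highest. By role these were 4 of 5 factors, 5 of 7 feedback genes and effectors, 5 of 7 synthesis genes, all 3 carriers and 8 of 12 synthetases. Levels are given as CPM, counts scaled to library size with TMM factors. With 1 control library per line there is no replicate spread, and the intervals are 95% Poisson intervals of the count, which cover counting error only.

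The CHOP gene DDIT3 stood at 86.8 CPM in AGS (82.4 to 91.4), 22.1 CPM in MDA-MB-231 (20.03 to 24.4), 14.6 CPM in BT-549 (13.0 to 16.4) and 13.8 CPM in NCI-H1395 (12.1 to 15.6). The BT-549 and NCI-H1395 intervals overlapped and the others did not. ATF3 spread more widely, with 243 CPM in AGS, 9.60 CPM in MDA-MB-231, 6.65 CPM in BT-549 and 4.54 CPM in NCI-H1395, 53.5-fold from highest to lowest. The glutathione-degrading enzyme CHAC1 ranged 85.4-fold, from 3.58 CPM in BT-549 to 306 CPM in AGS, and TRIB3 21.8-fold, from 24.7 CPM in MDA-MB-231 to 538 CPM in AGS. ASNS, which makes asparagine, stood at 41.3 CPM in AGS and between 0.665 and 4.05 CPM in the other lines. PHGDH of serine synthesis, the folate enzyme gene ALDH1L2 and the lipoprotein receptor gene VLDLR were the reverse, lowest in AGS and highest in NCI-H1395. NUPR1, STC2, LARS1 and NARS1 were highest in BT-549, and CARS1 and TARS1 in MDA-MB-231.

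Synthetases, the enzymes that load tRNAs with amino acids, ranged between 1.69-fold and 4.31-fold across the lines. TARS1 stood between 236 CPM in NCI-H1395 and 453 CPM in MDA-MB-231, and LARS1 between 246 CPM in MDA-MB-231 and 416 CPM in BT-549. The widest range among them was that of MARS1, from 157 CPM in MDA-MB-231 to 678 CPM in AGS. Per kilobase of exon, the level of the median synthetase in the controls was 65.3 CPM per kilobase in AGS, 26.1 in NCI-H1395, 28.8 in BT-549 and 19.8 in MDA-MB-231. On that scale the median feedback gene or effector stood at 149 CPM per kilobase in AGS, 6.17 in NCI-H1395, 8.96 in BT-549 and 2.91 in MDA-MB-231. By these medians, feedback genes and effectors lay below the synthetases in 3 lines and above them in AGS. Single genes went the other way, such as PPP1R15A at 115 CPM per kilobase in MDA-MB-231 and SESN2 at 36.5 in AGS. The divisor was the deposited exon length, 22418 bases for IARS1 and 2118 for DDIT4, and the comparison of roles depends on it. The plot of control levels gives each gene in CPM, not divided by length.

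**Figure D1:**
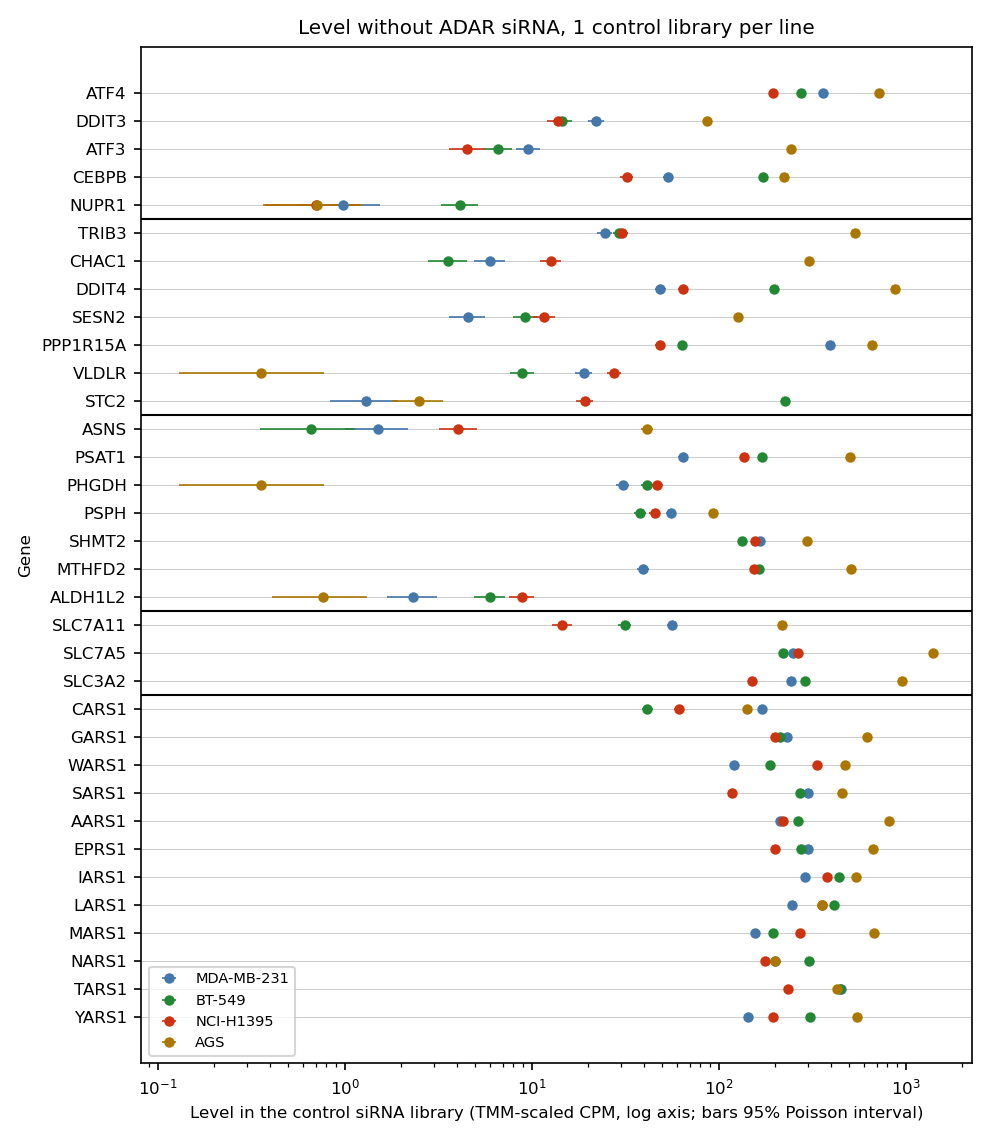
Level of each gene in the control siRNA library of each line, in TMM-scaled CPM on a log axis, with genes grouped by role from top to bottom (ATF and C/EBP factors, feedback genes and effectors, amino acid and one-carbon synthesis, carriers, tRNA synthetases). Points are single libraries and bars are 95% Poisson intervals of the count. AGS is the highest line for 25 of the 34 genes, and PHGDH and VLDLR are lowest there at 0.356 CPM each.

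With ADAR siRNA, many of the stress genes stood above the control in both libraries of NCI-H1395 and below it in both of AGS, and the breast lines lay between, though no gene of the 34 passed the adjusted edgeR test. Ratios in these counts are of CPM with a prior count of 2, which draws low genes towards no change. In NCI-H1395 both libraries were at least 2-fold above the control for 9 of 34 genes (26.5%), against 4.59% of 23959 genes: DDIT3, ATF3, TRIB3, CHAC1, DDIT4, SESN2, PPP1R15A, ASNS and SLC7A11. The same count was 1 gene in BT-549 (CHAC1; 2.6% of all genes) and 0 in MDA-MB-231 (4.52%), where NUPR1 was at 2.03 and 3.34 times the control without the prior count. In AGS both libraries were at least 2-fold below the control for STC2 and PHGDH (2.39%), which stood at 2.49 and 0.356 CPM in the control there. Each pair of ADAR siRNA libraries shares 1 control, so an error in that control moves both ratios together.

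Counted by direction alone, both libraries lay above the control for 20 of 34 genes in NCI-H1395 (34.1% of all genes), 15 in BT-549 (29.1%), 14 in MDA-MB-231 (40.9%) and 2 in AGS (27.4%). Both lay below it for 1 gene in NCI-H1395 (30.8%), 3 in BT-549 (28.7%), 11 in MDA-MB-231 (34%) and 15 in AGS (26.7%). For MDA-MB-231 these shares of the 34 genes, 41.2% and 32.4%, are near those of all genes. ATF3 and SESN2 were above the control in all 8 libraries (2.09% of all genes), and no gene of the 34 was below it in all 8. A group of 9 genes, DDIT3, CEBPB, CHAC1, DDIT4, STC2, ASNS, SLC7A11, SLC3A2 and AARS1, was above the control in both NCI-H1395 libraries and below it in both AGS libraries (7% of all genes).

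None of the 34 genes passed the edgeR quasi-likelihood test at an adjusted p under 0.05. Over the 4 lines, with each ADAR siRNA pair summed, 0 were called by edgeR (0.0182% of 21944 genes) and 0 by DESeq2, which called 7.36% of the 9606 genes it gave an adjusted p. Of the 34, 3 had an unadjusted edgeR p under 0.05, all with higher levels (6.42%): SESN2, VLDLR and ALDH1L2. The median log2 fold change of the 34 genes was 0.22, against 0.06 for all genes tested, with 27 above 0 (57.3% of all genes). Without NCI-H1395 the median was 0.04, and without AGS it was 0.34 and DDIT4 was called (adjusted p 0.0493; 0.0241% of genes).

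Within MDA-MB-231, 0 were called by edgeR (0.0751% of 23959 genes) and 0 by DESeq2 (0.361% of 14669 genes), and 4 had an unadjusted p under 0.05 (4.85%), CEBPB and DDIT4 higher and SLC7A5 and NARS1 lower. Within BT-549, 0 were called by edgeR (0.00417%) and 0 by DESeq2 (0.0125%), and 4 had an unadjusted p under 0.05 with higher levels (1.82%): CHAC1, DDIT4, SESN2 and SLC7A5. Within AGS, 0 were called by edgeR (0.00417%) and 0 by DESeq2 (0.118% of 11882 genes), and STC2 and PHGDH had an unadjusted p under 0.05 with lower levels (2%). The medians of the 34 genes were 0.04, 0.13 and -0.11 in these lines, against 0.01, 0 and 0 for all genes. With 1 library at a time, the median was -0.05 for library 1 and 0.16 for library 2 of MDA-MB-231, and 0.29 and -0.06 for those of BT-549, so its sign in the breast lines differed between libraries.

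Within NCI-H1395 the calls depended on the tool and its settings. By edgeR 0 were called (0.00417% of 23959 genes), while 15 of 34 (44.1%) had an unadjusted p under 0.05 with higher levels, against 3.13% of all genes. The median log2 fold change was 0.62, against 0.02 for all genes tested. DESeq2 called 8 of the 34 higher, against 0.396% of genes: DDIT3, ATF3, TRIB3, CHAC1, DDIT4, SESN2, PPP1R15A and SLC7A11. The edgeR test called 10 with no filter on low counts (0.174% of genes), 9 without library 2 (0.164%) and 3 without library 1 (0.16%). ATF3, TRIB3 and CHAC1 were in each of these 4 sets of calls. In the fits that leave out a library the lone ADAR siRNA library was assumed to vary like those of the other lines.

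The difference between lines was tested as the interaction of line and treatment. By edgeR 0 of 34 were called (0.0292% of 23959 genes), and 11 had an unadjusted p under 0.05 (3.37%): ATF3, CEBPB, TRIB3, CHAC1, DDIT4, SESN2, PPP1R15A, ASNS, SLC7A11, SLC7A5 and SLC3A2. No synthetase was among them. DESeq2 called 4 (0.336% of genes): CEBPB, CHAC1, DDIT4 and SLC7A11. These 4 are among the genes that were higher in NCI-H1395 and lower in AGS, as the ratio map shows.

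**Figure D2:**
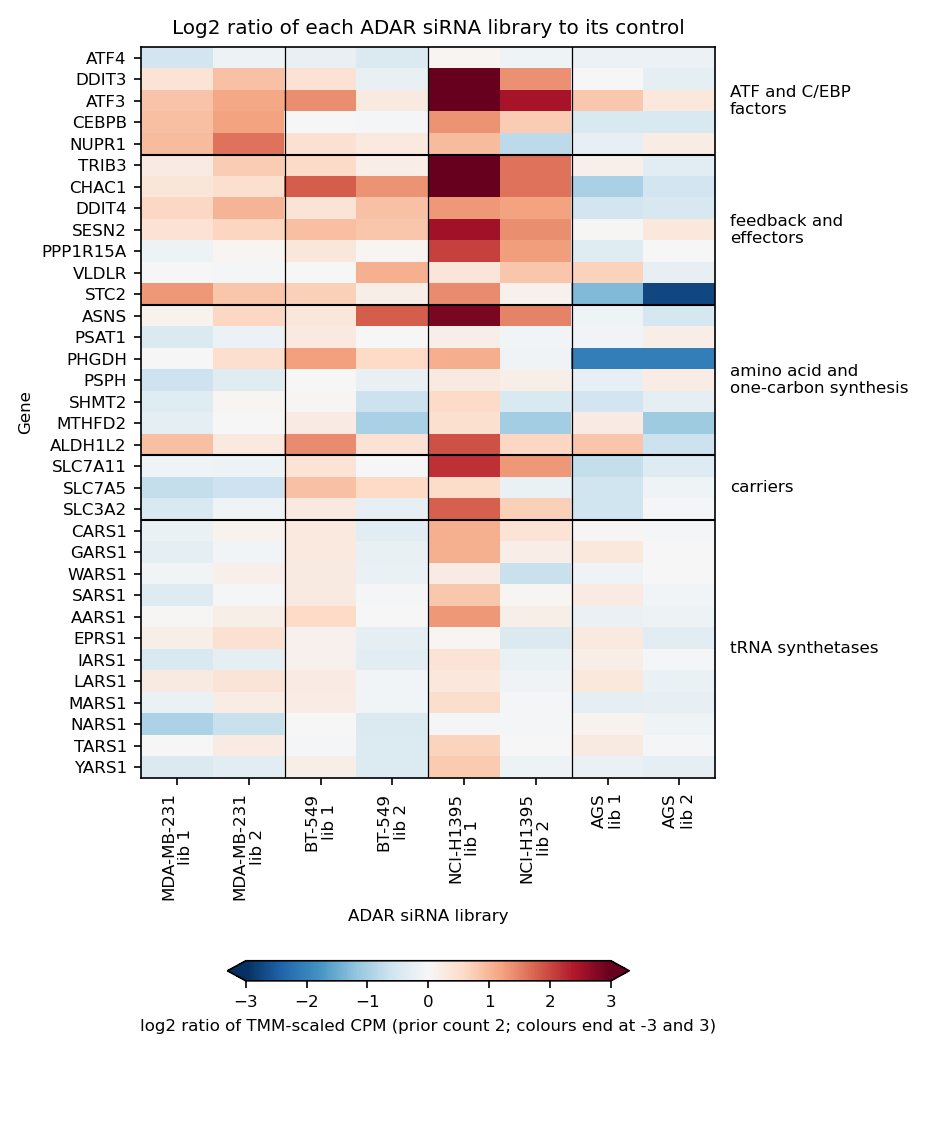
Log2 ratio of the TMM-scaled CPM (prior count of 2) of each ADAR siRNA library to the control of its line, for the 34 genes in rows and the 8 libraries in columns; red is above and blue below the control. NCI-H1395 library 1 is above its control for 33 genes and library 2 for 20, while PHGDH in AGS rests on 6 counts in the control and 0 in both ADAR siRNA libraries, so its colour is set by the prior count.

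Among the transcription factors, DDIT3, ATF3 and CEBPB stood above the control in both NCI-H1395 libraries while the ATF4 messenger did not. ATF4 (chr22:39519695-39522683), the factor translated when eIF2 is phosphorylated, was measured at 359.6, 243 and 324 CPM in MDA-MB-231, 277, 238 and 204 CPM in BT-549, 196, 204 and 180.0 CPM in NCI-H1395 and 719.8, 641 and 639 CPM in AGS, each as control, library 1 and library 2. It lay below the control in 7 of 8 libraries with log2 fold changes from -0.34 in MDA-MB-231 to -0.03 in NCI-H1395 (edgeR, adjusted p 0.524 over the 4 lines). DDIT3 (chr12:57516588-57521737), the gene of the pro-apoptotic factor CHOP, was measured at 22.1, 29.2 and 40.5 CPM in MDA-MB-231, 14.6, 19.7 and 12.5 CPM in BT-549, 13.8, 115 and 35.8 CPM in NCI-H1395 and 86.8, 85.7 and 71.5 CPM in AGS. Both NCI-H1395 libraries were high, library 1 at 8.34 times the control and library 2 at 2.60 times, and the AGS libraries lay at or below their control. The fitted log2 fold change in NCI-H1395 was 2.45 ± 0.69 (edgeR, adjusted p 0.706). Exons of DDIT3 overlap those of MARS1 on the other strand over 355 bases, 27.2% of the DDIT3 exon length, and no source used here gives the strand setting of featureCounts. MARS1 itself was at 144% and 97.5% of its control in NCI-H1395.

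ATF3 (chr1:212565334-212620777), a stress-induced factor of the same family, had levels of 9.60, 17.4 and 21.7 CPM in MDA-MB-231, 6.65, 17.6 and 8.07 CPM in BT-549, 4.54, 56.7 and 25.8 CPM in NCI-H1395 and 243, 422 and 302 CPM in AGS. It was the gene with the highest ratio in NCI-H1395, 12.5 and 5.68 times the control in libraries 1 and 2, and it was above the control in all 8 libraries. The log2 fold change was 3.18 ± 0.65 in NCI-H1395 (adjusted p 0.415) and 1.37 ± 0.55 over the 4 lines (adjusted p 0.477, edgeR). CEBPB (chr20:50190830-50192668), which encodes a C/EBP partner of ATF4, was measured at 53.6, 100.3 and 124 CPM in MDA-MB-231, 174, 175 and 166 CPM in BT-549, 32.2, 82.2 and 54.3 CPM in NCI-H1395 and 224, 162 and 164 CPM in AGS. It was higher with ADAR siRNA in both libraries of MDA-MB-231 and NCI-H1395 and lower in both of AGS, with log2 fold changes of 1.06 ± 0.30, 1.08 ± 0.30 and -0.46 ± 0.28. The unadjusted p of the difference between lines was 0.00128 by edgeR (adjusted 0.516). NUPR1, a small stress-induced chromatin protein gene, was low throughout, at 0.976, 1.98 and 3.26 CPM in MDA-MB-231, 4.15, 5.71 and 5.14 CPM in BT-549, 0.703, 1.46 and 0.363 CPM in NCI-H1395 and 0.711, 0.585 and 0.852 CPM in AGS. Its ratios rest on few counts in every line but BT-549, and its adjusted p over the 4 lines was 0.514 by edgeR.

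The feedback genes and effectors had the highest median ratios of the 5 roles in BT-549 and NCI-H1395. All 7 lay above 0 in the fit over the 4 lines, against 57.3% of all genes. Their median log2 fold change there was 0.59, against 0.06 for all genes tested. Their median was 1.71 in NCI-H1395, 0.65 in BT-549, 0.53 in MDA-MB-231 and -0.17 in AGS. CHAC1 (chr15:40952962-40956512) and TRIB3 (chr20:362835-397559) are described first, chosen after their values were seen. CHAC1 was measured at 5.96, 7.72 and 8.35 CPM in MDA-MB-231, 3.58, 12.9 and 9.31 CPM in BT-549, 12.6, 102 and 39.3 CPM in NCI-H1395 and 306, 156 and 205 CPM in AGS. It was high in both libraries of NCI-H1395 and BT-549 and low in both of AGS, with log2 fold changes of 2.48 ± 0.51, 1.63 ± 0.52 and -0.76 ± 0.43 (edgeR, adjusted p 0.302 in NCI-H1395). TRIB3, a pseudokinase gene whose product damps ATF4 and CHOP, was measured at 24.7, 29.2 and 42.0 CPM in MDA-MB-231, 29.5, 44.1 and 33.6 CPM in BT-549, 30.4, 243 and 94.5 CPM in NCI-H1395 and 538, 595 and 429 CPM in AGS. Library 1 of NCI-H1395 reached 7.99 times its control and library 2 3.11 times. Even so, the 243 CPM of library 1 stayed under the 538 CPM of the AGS control.

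SESN2 (chr1:28259518-28282491) and DDIT4 (chr10:72273919-72276036) encode stress-induced inhibitors of the growth kinase complex mTORC1. SESN2 was measured at 4.55, 6.15 and 7.19 CPM in MDA-MB-231, 9.26, 17.5 and 16.5 CPM in BT-549, 11.7, 67.6 and 30.8 CPM in NCI-H1395 and 126, 129 and 156 CPM in AGS. It was above the control in all 8 libraries, with a log2 fold change of 0.95 ± 0.32 over the 4 lines (edgeR, unadjusted p 0.0236, adjusted p 0.344) and 2.07 ± 0.40 in NCI-H1395 (adjusted p 0.227). DDIT4 was measured at 48.8, 74.6 and 98.6 CPM in MDA-MB-231, 199, 264 and 366 CPM in BT-549, 64.4, 158 and 149.9 CPM in NCI-H1395 and 879.7, 598 and 633 CPM in AGS. Both libraries were higher in MDA-MB-231, BT-549 and NCI-H1395 and both were lower in AGS. Its log2 fold changes were 0.83 ± 0.29, 0.66 ± 0.28, 1.26 ± 0.29 and -0.52 ± 0.27 in this order, and the unadjusted p of the difference between lines was 0.00101 by edgeR (adjusted 0.516).

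PPP1R15A (chr19:48872212-48876059) encodes GADD34, which brings a phosphatase to eIF2 and so ends the response. It was measured at 396, 356 and 412 CPM in MDA-MB-231, 64.0, 80.5 and 66.2 CPM in BT-549, 48.6, 202 and 116 CPM in NCI-H1395 and 658, 509 and 663 CPM in AGS. Only the NCI-H1395 libraries stood apart, at 415% and 238% of the control, against 77.3% to 126% in the other 6 libraries. The log2 fold change in NCI-H1395 was 1.71 ± 0.33 (edgeR, adjusted p 0.227), and the unadjusted p of the difference between lines was 0.00147 (adjusted 0.516). VLDLR (chr9:2621182-2660056), a lipoprotein receptor gene that ATF4 can turn on, was measured at 18.98, 19.1 and 18.3 CPM in MDA-MB-231, 8.90, 9.02 and 18.8 CPM in BT-549, 27.6, 35.4 and 49.1 CPM in NCI-H1395 and 0.356, 0.644 and 0.284 CPM in AGS. Its libraries were split, with library 2 of BT-549 at 2.11 times the control and library 1 near it, and the log2 fold change over the 4 lines was 0.43 ± 0.19 (adjusted p 0.389 by edgeR). STC2, the gene of the secreted glycoprotein stanniocalcin 2, stood at 37.6% and 11.4% of the control in AGS, and at 109% to 270.0% in the other lines.

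**Figure D3:**
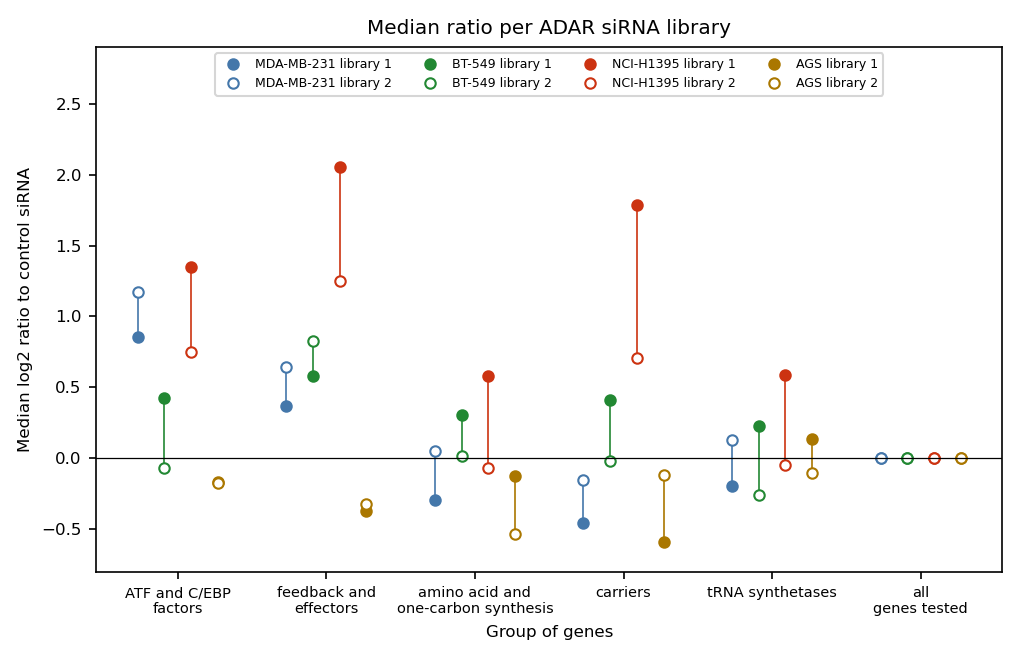
Median log2 ratio to the control of the genes of each role, with filled points for ADAR siRNA library 1, open points for library 2 and a line joining the pair; the last group is all genes tested. The feedback genes and effectors lie above 0 in both libraries of MDA-MB-231, BT-549 and NCI-H1395 and below 0 in both of AGS (-0.37 and -0.33), and the carriers lie highest in NCI-H1395 (1.79 and 0.71).

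Genes of amino acid and one-carbon synthesis were split within the role. Over the 4 lines the median log2 fold change of the 7 was 0.02, with 4 above 0 (57.3% of all genes). In NCI-H1395 it was 0.22, with 6 above 0 (51.3% of all genes). ASNS (chr7:97851677-97872542), asparagine synthetase, was measured at 1.52, 1.64 and 2.40 CPM in MDA-MB-231, 0.665, 0.873 and 2.62 CPM in BT-549, 4.05, 29.5 and 11.6 CPM in NCI-H1395 and 41.3, 37.8 and 28.4 CPM in AGS. Both NCI-H1395 libraries were high, at 729% and 287% of the control, while the breast lines were between 0.665 and 2.62 CPM. The log2 fold change was 2.35 ± 0.64 in NCI-H1395 (adjusted p 0.497) and 0.95 ± 0.49 over the 4 lines (adjusted p 0.525, edgeR). Another annotated gene on the same strand, ENSG00000284707, shares 49.3% of the ASNS exon length, and no source used here says how reads in both genes were counted. ALDH1L2 (chr12:105019784-105107643), a mitochondrial folate enzyme, was measured at 2.33, 4.44 and 2.89 CPM in MDA-MB-231, 5.99, 16.3 and 8.17 CPM in BT-549, 8.86, 33.8 and 13.7 CPM in NCI-H1395 and 0.771, 1.46 and 0.454 CPM in AGS. It was above the control in 7 of 8 libraries, with library 2 of AGS below it. In AGS the control and libraries 1 and 2 held only 13, 25 and 8 counts. ALDH1L2 had the smallest p of the 34 genes over the 4 lines (log2 fold change 0.98 ± 0.25, edgeR, unadjusted p 0.00126, adjusted p 0.176).

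PHGDH (chr1:119648411-119744218), which makes the first step of serine synthesis, was measured at 30.7, 30.3 and 43.6 CPM in MDA-MB-231, 41.5, 97.4 and 62.3 CPM in BT-549, 47.1, 101 and 44.0 CPM in NCI-H1395 and 0.356, 0 and 0 CPM in AGS. The AGS control held 6 counts and both AGS libraries with ADAR siRNA held 0. With a floor of 3 counts per library, the control level was 2.03-fold and 2.09-fold above the floors of libraries 1 and 2. The 95% Poisson interval of the control, 0.131 to 0.774 CPM, reaches under these floors of 0.176 and 0.170 CPM. That overlap is not a test of the counts. By edgeR within AGS, PHGDH had an unadjusted p of 0.0207 and an adjusted p of 0.976. With 6 counts in 1 control library, a lower level of PHGDH in AGS is not established. In the other lines PHGDH was higher in both BT-549 libraries, and in library 1 only of NCI-H1395. For the remaining enzymes of the serine and folate routes, the range of the ratio is given. PSAT1 lay between 74.4% and 123% of the control in the 8 libraries, PSPH between 64.9% and 119.8%, and SHMT2, the mitochondrial enzyme that splits serine, between 64.3% and 149.7%. MTHFD2, the next mitochondrial folate enzyme, lay between 47.9% and 140.3%, with library 2 low in 3 lines, as described with the libraries. With PHGDH set at the floors, log2 ratios of -1.02 and -1.06, it stayed under the medians of this role in AGS. These medians could not change, so this is no check of them.

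The amino acid carriers differed in direction between lines. SLC7A11 (chr4:138164097-138242349), the cystine and glutamate exchanger, was measured at 56.4, 51.2 and 50.9 CPM in MDA-MB-231, 31.4, 41.7 and 31.0 CPM in BT-549, 14.6, 66.9 and 36.4 CPM in NCI-H1395 and 217, 133 and 167 CPM in AGS. In NCI-H1395 its level was 458% and 249% of the control, and it lay below the control in both libraries of MDA-MB-231 and AGS. The log2 fold change was 1.82 ± 0.36 in NCI-H1395 (edgeR, adjusted p 0.227), -0.53 ± 0.32 in AGS and 0.32 ± 0.47 over the 4 lines, where it was -0.14 without NCI-H1395. The unadjusted p of the difference between lines, 5.11e-04, was the smallest among the 34 genes (adjusted 0.516 by edgeR). SLC3A2 (chr11:62856004-62888880), the heavy chain that partners both other carriers, was measured at 245, 179 and 224 CPM in MDA-MB-231, 289, 356 and 243 CPM in BT-549, 151, 521 and 247 CPM in NCI-H1395 and 956, 636 and 927 CPM in AGS. It was above the control in both NCI-H1395 libraries and below it in both of MDA-MB-231 and AGS, with a log2 fold change of 1.35 ± 0.43 in NCI-H1395 (adjusted p 0.714) and 0.23 ± 0.32 over the 4 lines, -0.15 without NCI-H1395. SLC7A5 (chr16:87830023-87869507), the carrier of large neutral amino acids such as leucine, was measured at 250.4, 153 and 164 CPM in MDA-MB-231, 221, 405 and 336 CPM in BT-549, 266, 390.0 and 233 CPM in NCI-H1395 and 1405, 931 and 1295 CPM in AGS. Here BT-549 was the high line, with 183% and 152% of the control and a log2 fold change of 0.75 ± 0.31, while MDA-MB-231 was low at -0.66 ± 0.29 (edgeR, adjusted p 1 and 0.989).

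**Figure D4:**
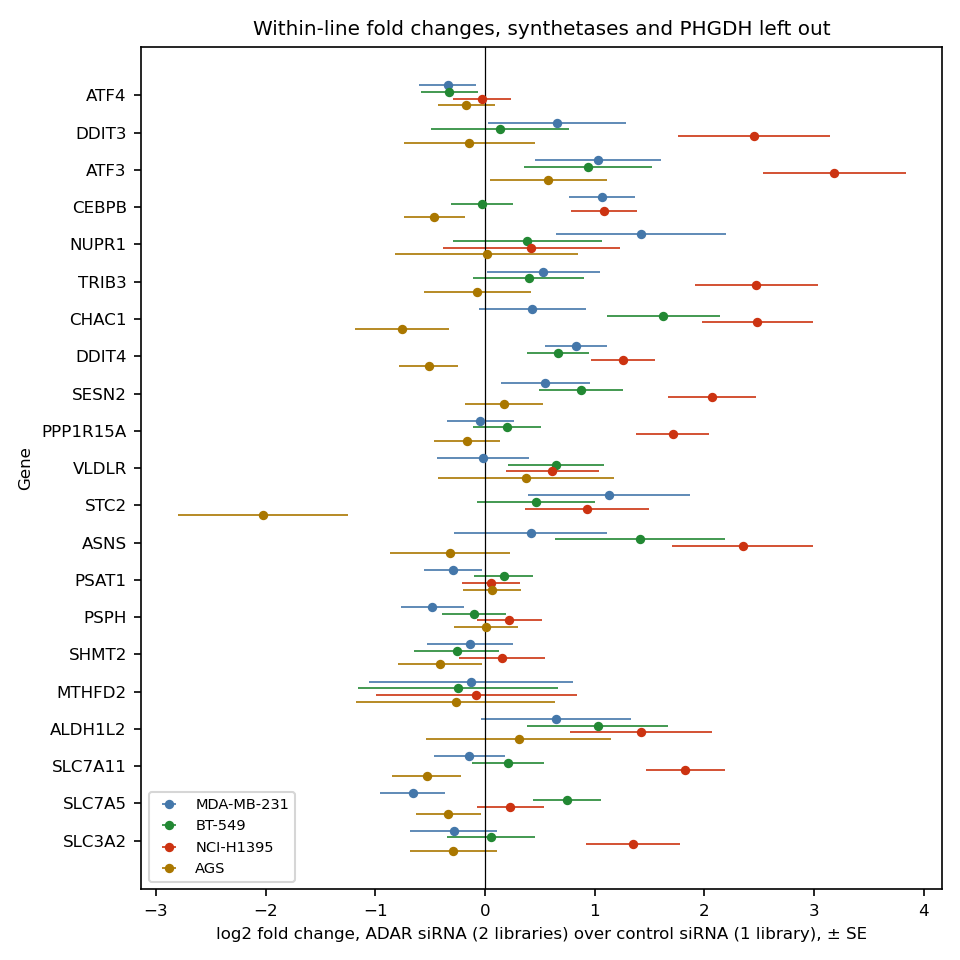
Log2 fold change of ADAR siRNA (2 libraries) over control siRNA (1 library) within each line, from the edgeR fit of 12 libraries, with bars of 1 standard error; synthetases are left out for space and PHGDH because its AGS level is 0. NCI-H1395 stands to the right of the other lines for DDIT3, ATF3, TRIB3, SESN2, PPP1R15A, SLC7A11 and SLC3A2, and none of these passed the adjusted test.

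The tRNA synthetases lay closer to their controls than the feedback genes did, and NCI-H1395 library 1 held the highest values. Over the 4 lines the median log2 fold change of the 12 was 0.09, with 9 above 0 (57.3% of all genes). In NCI-H1395 it was 0.32, and it was -0.01 in MDA-MB-231, 0.04 in BT-549 and 0.01 in AGS. Library 1 of NCI-H1395 had a median log2 ratio of 0.59 with 11 of 12 above the control, and library 2 had -0.05 with 5 of 12 above it. AARS1 (chr16:70251983-70289707), alanyl-tRNA synthetase, was measured at 212, 218 and 239.8 CPM in MDA-MB-231, 266, 401 and 269 CPM in BT-549, 222, 543 and 249.5 CPM in NCI-H1395 and 812, 711 and 726 CPM in AGS. It had the highest fold change of the 12 in NCI-H1395, 0.84 ± 0.38 (edgeR, adjusted p 0.916), carried by library 1 at 245% of the control against 113% in library 2. Over the 4 lines it was 0.31 ± 0.15 (adjusted p 0.469).

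NARS1 (chr18:57600656-57622213), asparaginyl-tRNA synthetase, was measured at 201, 104 and 126 CPM in MDA-MB-231, 304, 304 and 224 CPM in BT-549, 176, 172 and 169.7 CPM in NCI-H1395 and 201, 215 and 184 CPM in AGS. It was low in both MDA-MB-231 libraries, at 51.8% and 62.5% of the control, with a log2 fold change of -0.81 ± 0.26 (edgeR, unadjusted p 0.00596, adjusted p 0.520), and at 73.7% to 107% of the control elsewhere. LARS1 (chr5:146110566-146182696), leucyl-tRNA synthetase, was measured at 246, 297 and 322 CPM in MDA-MB-231, 416, 490.1 and 396 CPM in BT-549, 359, 449 and 334 CPM in NCI-H1395 and 357, 447 and 309 CPM in AGS, which is 86.7% to 131% of the control. CARS1 (chr11:3000922-3057613), cysteinyl-tRNA synthetase, was measured at 169.7, 148 and 182 CPM in MDA-MB-231, 41.6, 50.7 and 33.4 CPM in BT-549, 61.4, 129 and 81.2 CPM in NCI-H1395 and 142, 146 and 136 CPM in AGS. Library 1 of NCI-H1395 was its high library, at 2.10 times the control, and the fold change there was 0.78 ± 0.32 (adjusted p 0.866 by edgeR). GARS1, the glycyl enzyme, stood at 209% and 115% of the control in NCI-H1395 and at 83.5% to 124% in the other lines. The remaining 7, for tryptophan (WARS1), serine (SARS1), glutamate and proline (EPRS1), isoleucine (IARS1), methionine (MARS1), threonine (TARS1) and tyrosine (YARS1), lay between 63.3% and 175% of the control in the 8 libraries.

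ADAR siRNA libraries 1 and 2 differed for these genes, and not alike in every line. Library 2 was below library 1 for 33 of 34 genes in NCI-H1395 (97.1%, against 51.1% of all genes) and for 31 in BT-549 (91.2%, against 54%). It was below for 18 in AGS (52.9%, against 40.5%) and for 4 in MDA-MB-231 (11.8%, against 43.4%). All 12 synthetases were lower in library 2 than in library 1 in both NCI-H1395 and BT-549, and all 12 were higher in MDA-MB-231. The median log2 ratio of library 2 to library 1 over the 34 genes was -0.87 in NCI-H1395, -0.43 in BT-549, -0.05 in AGS and 0.27 in MDA-MB-231, while it was 0, 0, 0 and 0.01 over all genes. The ADAR level in libraries 1 and 2 was 10.5% and 11.9% of the control in NCI-H1395, and the gap was widest in AGS, at 17.6% and 23.9%.

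Over the 8 ADAR siRNA libraries, with line as a term, 0 of 34 genes were called different between the numbers by edgeR (0.0293% of 20470 genes) and 1, STC2, by DESeq2 (0.748% of 8961 genes). An unadjusted p under 0.05 was found for 7, all lower in library 2 (3.18% of all genes): ATF3, STC2, MTHFD2, ALDH1L2, GARS1, AARS1 and YARS1. Library 2 was lower in at least 3 of the 4 lines for 17 of 34 genes (50%, against 29.7%). It was lower in all 4 for STC2 and ALDH1L2 (5.88%, against 5.5%). In AGS, libraries 1 and 2 held only 16 and 5 counts of STC2 and 25 and 8 of ALDH1L2. In MDA-MB-231 they held 49 and 39 counts of STC2 and 65 and 47 of ALDH1L2. Without MDA-MB-231 the edgeR test called ATF3 and MTHFD2 (0.638% of 18815 genes), and without BT-549 it called MTHFD2 (0.377% of 19916 genes).

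MTHFD2, named here after its values were seen, was measured at 39.6, 32.4 and 40.1 CPM in MDA-MB-231, 164, 193 and 83.7 CPM in BT-549, 155, 217 and 75.6 CPM in NCI-H1395 and 511, 604 and 245 CPM in AGS. Library 2 was low in BT-549, NCI-H1395 and AGS and level with the control in MDA-MB-231. Its log2 ratio of library 2 to library 1 was 0.31, -1.21, -1.52 and -1.30 in MDA-MB-231, BT-549, NCI-H1395 and AGS, and the fitted difference was -0.97 ± 0.26 (edgeR, adjusted p 0.236). STC2, likewise, was measured at 1.30, 3.35 and 2.40 CPM in MDA-MB-231, 226, 369 and 254 CPM in BT-549, 19.2, 51.9 and 21.1 CPM in NCI-H1395 and 2.49, 0.937 and 0.284 CPM in AGS. Library 2 was lower than library 1 in each line, with a fitted difference of -0.89 ± 0.20 on the log2 scale (adjusted p 0.158 by edgeR). For ALDH1L2 the fitted difference was -1.10 ± 0.26 (adjusted p 0.158). The exception in NCI-H1395 was VLDLR, and those in BT-549 were VLDLR, DDIT4 and ASNS, each higher in library 2.

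**Figure D5:**
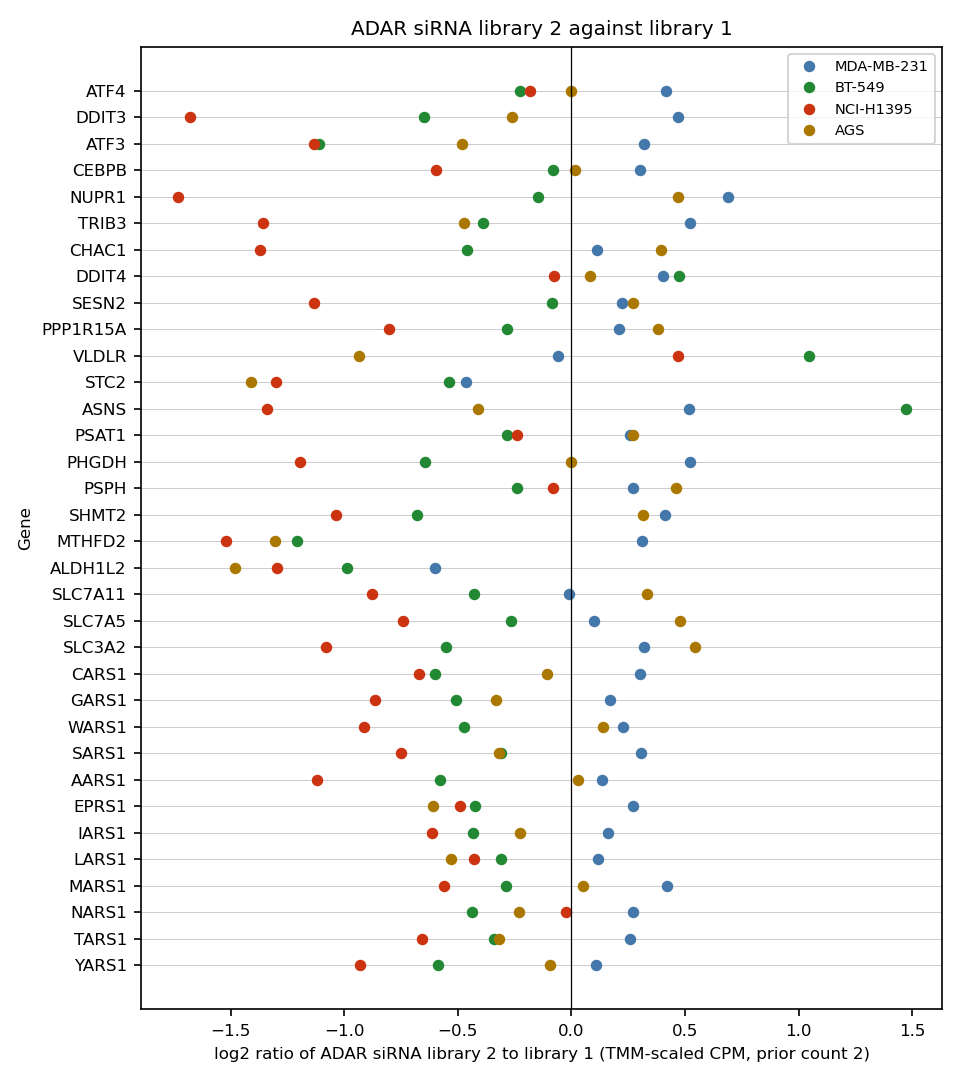
Log2 ratio of ADAR siRNA library 2 to library 1 for each gene, 1 point per line (TMM-scaled CPM, prior count of 2). Points of NCI-H1395 lie left of 0 for 33 of 34 genes and those of BT-549 for 31, while those of MDA-MB-231 lie right of 0 for 30.

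Other genes of the pathway were looked at as lists, with 0 called over the 4 lines by edgeR in each (0.0182% of 21944 genes). Of all genes tested, 57.3% lay above 0 over the 4 lines and 42.7% below. Among 15 genes of the eIF2 kinases, eIF2 and eIF2B, 4 lay above 0 over the 4 lines and 11 below, with a median log2 fold change of -0.09. The 2 smallest p-values were those of EIF2B5, a subunit of the exchange factor that reloads eIF2, at -0.28 ± 0.12 (adjusted p 0.381), and of PPP1R15B, the constitutive relative of PPP1R15A, at 0.26 ± 0.12 (adjusted p 0.431). PKR (EIF2AK2) was measured at 149, 146 and 142 CPM in MDA-MB-231, 317, 287 and 226 CPM in BT-549, 221, 175 and 119 CPM in NCI-H1395 and 142, 166 and 149 CPM in AGS. It lay below the control in both libraries of MDA-MB-231 (98.0% and 95.5%), BT-549 (90.4% and 71.2%) and NCI-H1395 (79.0% and 53.6%). In AGS both libraries were above the control, at 117% and 105%. The log2 fold change of EIF2AK2 in NCI-H1395 was -0.59 ± 0.27 (edgeR, adjusted p 0.916).

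The 11 other cytosolic synthetases and scaffold proteins lay lower than the 12, with a median of -0.14 over the 4 lines. Among the 11, 1 was above 0 and 10 below, against 57.3% and 42.7% of all genes. In NCI-H1395 their median was -0.18, against 0.32 for the 12, and the difference of the 2 groups was not tested. Both groups were chosen with earlier results of these data known, so the difference cannot be read as a trait of either group. FARSA and FARSB, the subunits of phenylalanyl-tRNA synthetase, had the smallest p, at -0.29 ± 0.10 and -0.30 ± 0.12 (edgeR, adjusted p 0.292 and 0.341). Of 16 mitochondrial synthetases tested, 3 were above 0 and 13 below (57.3% and 42.7% of all genes), with a median of -0.18. IARS2, the isoleucyl enzyme of mitochondria, was at -0.24 ± 0.12 (edgeR, adjusted p 0.462).

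Among 20 other genes linked to ATF4, 16 lay above 0 over the 4 lines (57.3% of all genes), with a median of 0.19. ATF5, a factor translated like ATF4, was measured at 18.7, 10.0 and 11.5 CPM in MDA-MB-231, 71.4, 50.5 and 44.0 CPM in BT-549, 67.2, 50.8 and 47.8 CPM in NCI-H1395 and 64.5, 29.5 and 50.9 CPM in AGS. It was below the control in all 8 libraries, at -0.60 ± 0.12 (edgeR, adjusted p 0.0996), and KLHL24 had the next smallest p, at 0.60 ± 0.16 (adjusted p 0.193). GDF15, a secreted stress hormone of the TGF-beta family, was 1 gene of the list called within a line, and was named for that. It was measured at 3.42, 25.6 and 37.3 CPM in MDA-MB-231, 221, 210.1 and 152 CPM in BT-549, 10.1, 21.8 and 11.9 CPM in NCI-H1395 and 2708, 1353 and 1251 CPM in AGS. It rose in MDA-MB-231 by 3.20 ± 0.41 on the log2 scale (edgeR, adjusted p 0.00112; 0.0704 without library 2), and its response differed between lines (adjusted p 0.0111), with both AGS libraries below their control. The cystathionine lyase gene CTH was at 3.13, 18.4 and 7.98 CPM in NCI-H1395, 2.08 ± 0.46 on the log2 scale (adjusted p 0.235).

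The ATF6 and XBP1 branch of the unfolded protein response was followed as the neighbouring pathway. Of its 15 genes, 12 lay above 0 over the 4 lines (57.3% of all genes), with a median of 0.12. ATF6 stood at 0.22 ± 0.11 and DNAJC3, an inhibitor of PERK, at 0.25 ± 0.12 (edgeR, adjusted p 0.451 and 0.456). In MDA-MB-231 all 15 lay above 0 (50.5% of all genes), with a median of 0.39. In AGS 13 of 15 lay below 0 (40.6% of all genes), with a median of -0.35. In library 1 of NCI-H1395, where the 34 genes had a median log2 ratio of 1.01, the median of this branch was 0.08, and in library 2 the values were 0.15 and 0.40. XBP1 in NCI-H1395 was measured at 62.8, 167 and 86.7 CPM.

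With NOP14 overexpression in MDA-MB-231 these genes stood near their levels in the PCDH library. Of the 32 genes with at least 1 CPM, 0 were at least 2-fold higher than in the PCDH library (0.2% of 13984 genes) and 0 at least 2-fold lower (0.257%). With 1 library per group there is no replicate check. The median log2 ratio of the 32 was -0.02, against -0.0006 for all genes at 1 CPM or more. At 5 CPM or more, the highest ratios were those of CEBPB, 108.0 CPM against 89.4 CPM (120.8%), SESN2, 9.25 against 7.90 CPM (117%), and PPP1R15A, 123 against 115 CPM (106.8%). The lowest were those of PHGDH, 18.01 CPM against 20.1 CPM (89.5%), ATF3, 6.96 against 7.65 CPM (90.9%), and PSPH, 35.7 against 39.2 CPM (91.1%). DDIT3 stood at 6.34 and 6.11 CPM and ATF4 at 259 and 258 CPM in the 2 libraries.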

How the data were processed

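The authors' deposited table holds raw exon counts per gene, with gene positions, for 14 libraries of poly(A) RNA primed with random hexamers. Tools named in the submitters' processing notes are fastp 0.23.4, STAR 2.7.11a and featureCounts 2.0.6, with genome build hg38, and no source used here gives the strand setting. Of 62702 lines, 3 broken lines were not used. Gene positions are those of the deposited table (hg38). Counts were tested as deposited with edgeR 4.0.16 (R 4.3.3; TMM scaling, filterByExpr, robust quasi-likelihood, Benjamini-Hochberg adjustment over all genes tested). Over the 4 lines, each ADAR siRNA pair was summed and line was a term (8 columns, 3 residual degrees of freedom). Within lines and for the interaction, 12 libraries in 8 groups were fitted (4 residual degrees of freedom), on the assumption that the lone controls vary as the ADAR siRNA pairs do. Libraries 2 and 1 were compared with line as a term (3 residual degrees of freedom). Log2 ratios of single libraries used CPM with a prior count of 2, and Poisson intervals and the floor of 3 counts cover counting error only. DESeq2 1.42.0, other scalings, no filter, a replicate block and left-out libraries were the alternatives. The scripts were tested on simulated data. The 34 genes and the other lists were chosen with earlier results of these data known. Full values are given for ATF4, DDIT3 and, in each role, the 3 genes with the smallest p over the 4 lines and the 2 with the smallest p of the interaction, others by range. A gene that this rule would name from another list is not reported here.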

Additional observations from a re-analysis of the deposited data

Results flagged for a closer look

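Median log2 ratios of roles were on opposite sides of 0 in both libraries of one line and both of another in 8 cases, and these differences between lines were not tested. The transcription factors stood at 0.85 and 1.17 in MDA-MB-231 and at 1.35 and 0.75 in NCI-H1395, against -0.17 and -0.17 in AGS, which are differences of 1.18 and 1.22 between the mean library medians. The feedback genes and effectors stood at -0.37 and -0.33 in AGS, below MDA-MB-231 by a difference of 0.854, below BT-549 by 1.05 and below NCI-H1395 by 1.999. Amino acid and one-carbon synthesis stood at 0.30 and 0.02 in BT-549 and at -0.13 and -0.54 in AGS, a difference of 0.493. The carriers stood at 1.79 and 0.71 in NCI-H1395, at -0.45 and -0.15 in MDA-MB-231 and at -0.59 and -0.12 in AGS, with differences of 1.55 and 1.60. Synthetases gave no such case. Both ratios of a line share 1 control library.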

How the results depend on the processing

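With no filter on low counts, edgeR called 3 of the 34 genes over the 4 lines (SESN2, PHGDH and ALDH1L2; 0.952% of all genes), 1 in BT-549 (CHAC1; 0.0652%), 10 in NCI-H1395 (0.174%), 1 in AGS (STC2; 0.0797%), 12 for the difference between lines (0.304%) and 4 between libraries 2 and 1 (0.686%), against 0 in each with the filter. DESeq2 called 8 in NCI-H1395 (0.396%), 4 for the difference between lines (0.336%) and 1 between the libraries (0.748%). Leaving out libraries or lines gave 0 to 1 calls over the 4 lines, 3 to 9 in NCI-H1395 and 0 to 2 between libraries. The cause of these changes was not tested. The median log2 fold change in AGS was -0.0206 with library totals and -0.19 to -0.12 with a library left out, and in NCI-H1395 it was 0.12 without library 1 and 1.05 without library 2. With library 1 left out of every line, the median over the 4 lines was 0.01. The motif share was 18.5% with only the bases before the start.

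Over the 4 lines, PHGDH was -0.19 by DESeq2. SLC7A5 was -0.00598 with median-ratio size factors, -0.00594 by DESeq2, -0.0430 with 12 unsummed libraries and -0.21 to 0.26 with a library or line left out. SLC3A2 ranged from -0.15 without NCI-H1395 to 0.40 without MDA-MB-231, and SLC7A11 from -0.14 without NCI-H1395 to 0.63 without AGS. LARS1 was -0.00609 without library 1 and 0.30 without library 2. With a replicate block, 0 of the 34 genes were called (0.00935% of 21392 genes), the median was 0.16 and SLC7A5 was -0.0431. Deviations of same-numbered libraries correlated at 0.46, 0.20 and 0.23 for the pairs among BT-549, NCI-H1395 and AGS and at -0.09 to 0.05 for those with MDA-MB-231 (12107 genes), so the numbers were not shown to pair the libraries of all lines. With 1 control library per line, an error in a control cannot be told apart from a response of its line.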
